A study of Mus musculus with 23 samples.

Results

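Prtn3, the gene of the serine protease proteinase 3, was examined together with 7 other genes of neutrophil granules, Elane, Mpo, Ctsg, Ngp, Camp, Ltf and Chil3, in 23 poly(A) RNA-seq libraries of mouse liver and tumor. These 8 genes were taken by symbol from the 48897 genes of the count table, and each symbol was found on 1 line. They had been chosen by their measured values in these livers, so their differences between the livers, and between tumor and pre-metastatic liver, are given as descriptions with no p value. The control livers came from 5 sham-operated male BALB/c mice, in which medium alone was injected into the cecal wall. The pre-metastatic livers and the primary tumors came from 9 male BALB/c mice injected in the same place with CT26 cells, a mouse colon carcinoma line from the same strain, and each of these mice gave 1 liver and 1 tumor. The mice were 4 to 6 weeks old at surgery and tissue was taken 3 weeks later. The labels name no other treatment, and the primary tumor samples are pieces of tissue that can hold host cells beside the CT26 cells.

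Granulocytes arise in the bone marrow and fill their granules in a fixed order. Promyelocytes make the primary, or azurophil, granules, with myeloperoxidase (Mpo) and the serine proteases neutrophil elastase (Elane), proteinase 3 (Prtn3) and cathepsin G (Ctsg). Myelocytes and metamyelocytes then make the secondary granules, with lactoferrin (Ltf), the cathelicidin precursor (Camp) and neutrophilic granule protein (Ngp). Mature neutrophils carry these proteins but have shut off most of the genes, so in most tissues the RNAs mark precursors rather than circulating neutrophils. Chil3 encodes the chitinase-like protein Ym1, which is made by neutrophil precursors and also by some macrophages, and Ctsg is also transcribed in some mast cells.

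Prtn3 and Elane are neighbors on mouse chromosome 10 and point the same way. In mm10, the build of the table, Prtn3 lies on the plus strand at chr10:79879667-79883174 and Elane on the plus strand at chr10:79886312-79888216, with a gap of 3137 bases between them. The reference transcript of each gene has 5 exons. The 250 bases before each RefSeq start (GRCm38.p6, the plus strand, chr10:79879417-79879666 for Prtn3 and chr10:79886062-79886311 for Elane) are shown because these adjacent genes stood far apart in level in the pre-metastatic livers. Capitals mark AGGAAGT, a core sequence bound by the myeloid factor PU.1, and AACGG, a core sequence bound by MYB.
Prtn3: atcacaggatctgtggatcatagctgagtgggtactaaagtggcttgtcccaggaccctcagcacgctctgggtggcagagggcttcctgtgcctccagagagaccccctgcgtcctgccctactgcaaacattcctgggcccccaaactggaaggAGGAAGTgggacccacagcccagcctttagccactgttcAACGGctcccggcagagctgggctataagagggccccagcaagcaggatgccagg
Elane: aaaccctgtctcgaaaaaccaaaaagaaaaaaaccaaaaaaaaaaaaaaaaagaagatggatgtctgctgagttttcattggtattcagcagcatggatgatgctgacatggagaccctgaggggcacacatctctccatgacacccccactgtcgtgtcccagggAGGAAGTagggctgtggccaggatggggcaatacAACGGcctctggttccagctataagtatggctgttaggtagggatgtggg

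Both windows held the same 3 short sequences in the same order. AGGAAGT began at base -94 in Prtn3 and at base -84 in Elane, AACGG at base -55 and base -50, and TATAA at base -32 and base -31, counted from the RefSeq start. The GENCODE reference transcripts begin earlier, at 79879614 for Prtn3 and 79886247 for Elane, inside these windows. By those starts TATAA in both genes and AACGG in Elane lie within the transcript, and AACGG in Prtn3 spans its start. Over both strands, AGGAAGT was found in 5 of the 8 granule genes (Prtn3, Elane, Mpo, Ctsg and Chil3) and in 7.69% of 32817 RefSeq promoter windows of this length. AACGG was found in Prtn3 and Elane and in 14.5% of all windows, and TATAA in Prtn3, Elane and Ctsg and in 22.8% of all windows. TTNNGCAA, a C/EBP-type sequence, was found in Ngp and Ltf and in 9.57% of all windows. TTCNNNGAA, a STAT-type sequence, was found in Ctsg and Chil3 and in 7.01% of all windows. None of these motifs overlaps another in the 2 windows printed, and a match of letters is not a measured binding site.

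Total counts were 44587556 to 79773163 a library, and no library was a copy of another. Among the livers, 3010 of 16989 genes tested were higher and 2261 were lower in pre-metastatic liver at an adjusted p under 0.05 (edgeR, TMM scaling, Benjamini-Hochberg), so that 57.1% of the called genes were higher. With scaling by total counts alone that share was 46.0%. The livers also fall into 2 sets by 6 circadian clock genes, an early set with 4 control and 5 pre-metastatic livers and a late set with control mouse C7 and tumor-bearing mice M1, M2, M10 and M12. On the score of these genes C7 stood at 0.981, about midway between the nearest early liver (M7, -0.102) and the nearest late liver (M12, 2.05). Its place in the late set is therefore uncertain. All 14 livers expressed the hepatocyte gene Alb at 15822 RPKM or more (counts divided by gene length and by the library total), while the 9 tumors were at 2.97 to 173 RPKM.

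Prtn3 was low in every control liver and high in every pre-metastatic liver. In control liver it was at 1.45, 1.10, 1.22, 0.766 and 1.59 RPKM in mice C1, C4, C5, C6 and C7, a mean of 1.22 ± 0.320 (SD, n = 5) from 38 to 85 counts. In pre-metastatic liver the lowest library was at 26.8 RPKM, the median at 79.9 RPKM and the highest at 109 RPKM, with a mean of 72.0 ± 28.7 (SD, n = 9) from 1163 to 7502 counts. The groups did not overlap, and the ratio of the means was 58.8. Every pre-metastatic library lay above every control library for 4.85% of the 16989 genes tested. Among all genes of a library ordered by RPKM, Prtn3 stood between place 9410 and place 11317 in control livers and between place 574 and place 1928 in pre-metastatic livers. In bulk tissue, more cells of a type and more RNA per cell cannot be told apart.

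**Figure D1:**
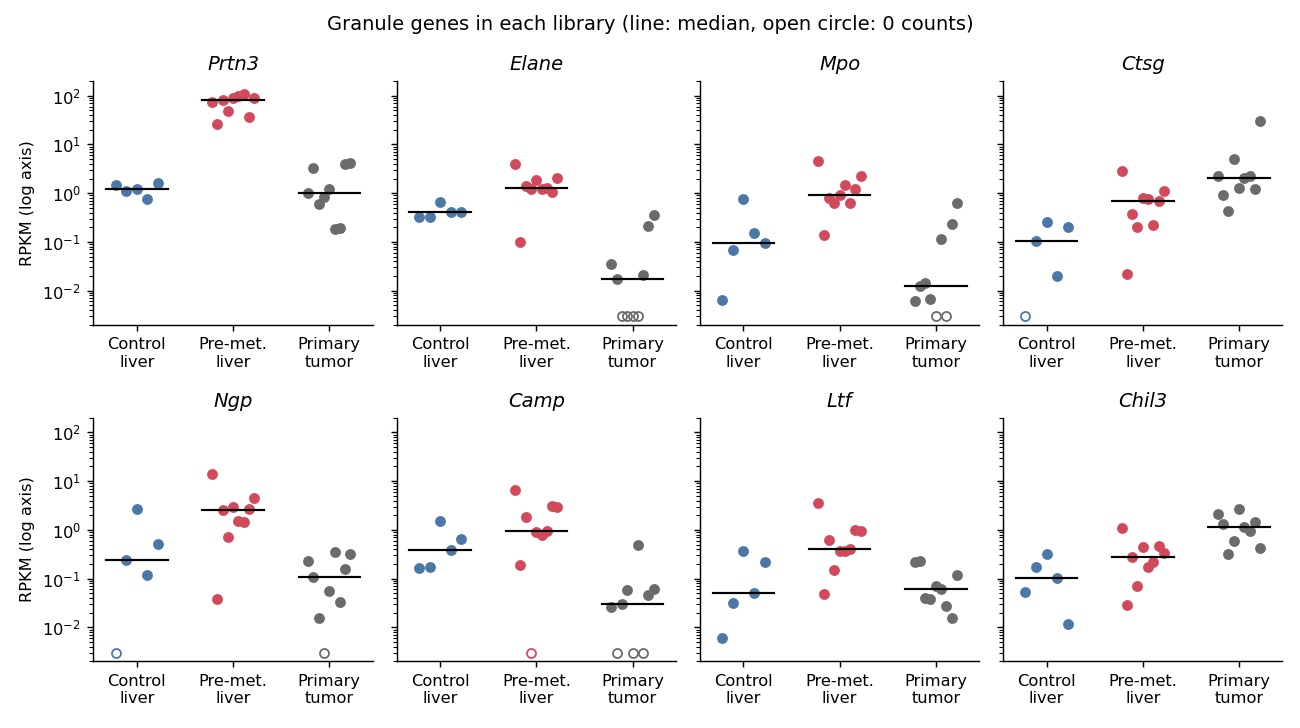
RPKM on a log axis of the 8 granule genes in each library of control liver (n = 5), pre-metastatic liver (n = 9) and primary tumor (n = 9), with a line at the group median and open circles for 0 counts. Prtn3 is at 26.8 to 109 RPKM in pre-metastatic liver, with no overlap with the other groups, while the other 7 genes overlap between the livers and Ctsg and Chil3 have their highest medians in the tumors.

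The difference in Prtn3 was present in both clock sets. Within the early set, control livers were at 0.766 to 1.45 RPKM (n = 4) and pre-metastatic livers at 47.7 to 109 RPKM (n = 5). In the late set, the control liver was at 1.59 RPKM and the 4 pre-metastatic livers were at 26.8 to 90.1 RPKM. The late set holds 1 control liver, which is too few for a comparison of its own.

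The other primary granule genes were higher on average in pre-metastatic liver, with overlap between the groups. Elane was at 0.324, 0.324, 0.652, 0.404 and 0.416 RPKM in control mice C1, C4, C5, C6 and C7 (mean 0.424 ± 0.135, SD, n = 5). Among the pre-metastatic livers Elane was at 0.0975 RPKM in the lowest library, 1.31 at the median and 3.97 in the highest (mean 1.57 ± 1.05, SD, n = 9). The liver of mouse M2 lay below all control livers for Elane, from 4 counts, and the other 8 pre-metastatic livers lay above all of them. Mpo, the peroxidase that makes hypochlorous acid, was at 0.00650 to 0.766 RPKM in control liver and at 0.141 to 4.67 RPKM in pre-metastatic liver, with a median of 0.0929 against 0.907 RPKM. Ctsg was at 0, 0.106, 0.250, 0.0196 and 0.201 RPKM in control mice C1, C4, C5, C6 and C7. In pre-metastatic liver Ctsg was at 0.0225 RPKM in the lowest library, 0.704 at the median and 2.91 in the highest. For both Mpo and Ctsg, 6 of 9 pre-metastatic livers lay above all control livers.

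The secondary granule genes and Chil3 overlapped more between the livers. Ngp, a relative of the cystatin protease inhibitors, had a median of 0.242 RPKM in control liver (0 to 2.68) and 2.60 RPKM in pre-metastatic liver (0.0386 to 13.8). Camp, the precursor of an antimicrobial peptide, had a median of 0.392 RPKM in control liver (0.166 to 1.53) and 0.967 RPKM in pre-metastatic liver (0 to 6.68). Ltf, which encodes an iron-binding protein, was at 0.136 ± 0.156 RPKM in control liver (SD, n = 5, 0.00604 to 0.371) and at 0.830 ± 1.09 RPKM in pre-metastatic liver (SD, n = 9, 0.0491 to 3.61). Chil3 had a median of 0.102 RPKM in control liver (0.0118 to 0.325) and 0.282 RPKM in pre-metastatic liver (0.0291 to 1.07). Of 9 pre-metastatic livers, 5 lay above all control livers for Ltf and 4 for each of Ngp, Camp and Chil3.

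On the log2 scale of the fit across all genes, the 8 genes were all estimated as higher in pre-metastatic liver, and all 8 had passed the filter of 10 counts in 5 livers. The log2 fold change was 5.99 ± 0.44 (SE) for Prtn3, which was place 14 of 16989 genes by size. It was 2.89 ± 0.94 for Ctsg, 2.82 ± 0.88 for Mpo and 1.998 ± 0.55 for Elane among the primary granule genes. It was 2.73 ± 0.96 for Ltf, 2.37 ± 1.06 for Ngp, 1.86 ± 0.92 for Camp and 1.48 ± 0.75 for Chil3. The median of the 8 was 2.55, beside 0.01 for all genes. Prtn3, Elane, Mpo, Ctsg and Ltf were among the called genes, 5 of 8, where 17.7% of all genes were called higher and 13.3% lower. Only Prtn3 and Elane of the 8 were called among the early livers alone, and likewise without control mouse C4 or without C6. The same contrast chose the genes, so these counts are descriptions and nothing is read from them. Leaving out control mouse C5 moved the estimate of Ngp to 4.08 and that of Mpo to 4.28.

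**Figure D2:**
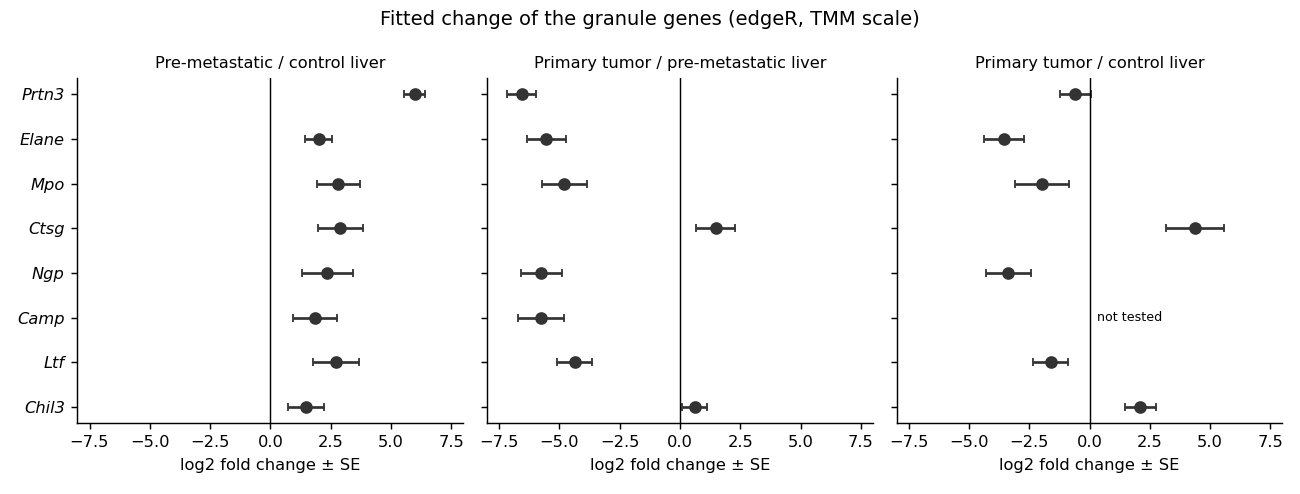
Log2 fold change with its SE (bars) of each granule gene in 3 comparisons fitted across all genes, with 0 marked by a line. Prtn3 stands at 5.99 between the livers and at -6.57 between tumor and pre-metastatic liver, while Ctsg and Chil3 are to the right of 0 in all 3 comparisons.

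Compared mouse by mouse, Prtn3 did not keep a fixed proportion to the other granule genes. Prtn3 had the highest RPKM of the 8 in 9 of 9 pre-metastatic livers, in 4 of 5 control livers and in 3 of 9 tumors. Its RPKM divided by the summed RPKM of the other 7 was 0.185 to 2.60 in control liver (median 0.760) and 1.99 to 47.5 in pre-metastatic liver (median 10.8). It was 0.0443 to 1.29 in the tumors (median 0.203). Against its neighbor Elane alone, the ratio of RPKM was 1.87 to 4.47 in control liver and 18.4 to 275 in pre-metastatic liver, with no overlap. The mean log2 difference between Prtn3 and the other 7 genes, with 0.1 RPKM added to each value, had a median of 2.31 over the control livers, of 6.41 over the pre-metastatic livers and of 1.97 over the tumors.

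Mice M2 and M1 marked the ends of this range. In the liver of M2, Prtn3 was at 26.8 RPKM while the other 7 genes summed to 0.565 RPKM, close to the lowest control liver (0.556 RPKM). That liver had 4 counts of Elane, 2 of Ngp and 1 of Ctsg against 1163 of Prtn3. Genes of mature neutrophils were also low there: 12 such genes summed to 11.1 RPKM, within the control range of 7.96 to 20.6 RPKM, and below the 25.6 to 124 RPKM of the other 8 pre-metastatic livers. In the liver of M1 the other 7 genes summed to 36.7 RPKM and the mature neutrophil genes to 124 RPKM, the highest of the 14 livers for both, while Prtn3 was at 72.9 RPKM, place 6 of 9. Prtn3 was highest in the liver of M8, at 109 RPKM, where the other 7 genes summed to 5.17 RPKM. Among the control livers, mouse C5 had 2.68 RPKM of Ngp and 6.58 RPKM over the 7 genes, with Prtn3 at 1.22 RPKM, so the control liver with the most granule RNA otherwise was not high in Prtn3.

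**Figure D3:**
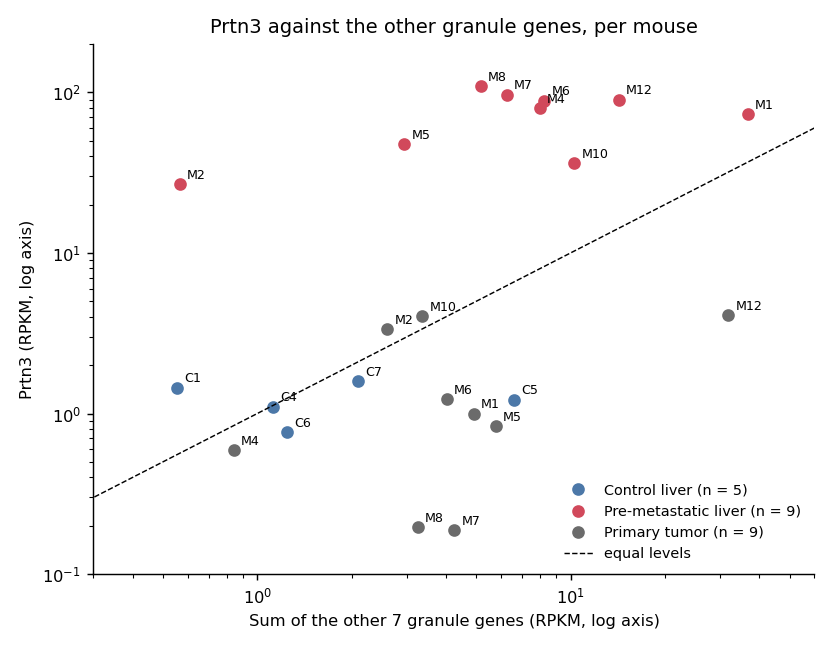
Prtn3 RPKM against the summed RPKM of the other 7 granule genes, both on log axes, for each of 23 libraries labeled by mouse, with a dashed line of equal levels. The 9 pre-metastatic livers lie above the line, from a sum of 0.565 RPKM in M2 to 36.7 RPKM in M1, at Prtn3 levels of 26.8 to 109 RPKM.

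The order of the livers by Prtn3 differed from their order by the other genes. Over the 9 pre-metastatic livers, Spearman's rho with Prtn3 was 0.50 for Elane, 0.35 for Ctsg, 0.32 for Mpo, 0.20 for Ngp, 0.10 for Ltf, 0.067 for Camp and 0.050 for Chil3. Among the 21 pairs of the other 7 genes, rho was 0.57 to 0.98 with a median of 0.82. These are descriptions over 9 libraries, which share the depth of each library, and many of the 7 genes rest on few counts.

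The genes most like Prtn3 over the 14 livers were Gm7694 (rho = 0.97), Ambp (0.96), Slc37a1 (0.96), Itih1 (0.96) and Tifa (0.96), out of 16988 genes compared on log2(RPKM + 1). Ambp encodes the precursor of alpha-1-microglobulin and bikunin, Itih1 a heavy chain of the inter-alpha-trypsin inhibitor, Slc37a1 a sugar phosphate carrier and Tifa an adaptor of innate immune signaling. The 14 livers form separate groups in Prtn3, so these values mostly follow the group. Within the 9 pre-metastatic livers, rho with Prtn3 was 0.97 for Itih1, 0.93 for Ambp and for Slc37a1, 0.92 for Tifa and 0.88 for Gm7694. These 9 are among the 14 livers that picked the genes, so high values here were favored by the choice. Ambp was at 1189 to 1411 RPKM in the controls, at 2341 to 3814 RPKM in the pre-metastatic livers and at 0.508 to 12.4 RPKM in the tumors. Tifa was at 0.664 to 1.40, 3.65 to 21.7 and 1.16 to 4.10 RPKM in the same order. By the same measure over 14 livers, Elane was the nearest of the granule genes to Prtn3, at place 471 (rho = 0.76), and Chil3 the farthest, at place 2831 (rho = 0.42).

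The genes around Prtn3 overlapped in level between the livers. Of 14 other genes within 50 kb, none overlaps Prtn3 by the deposited positions. For none of them did every pre-metastatic liver lie above every control liver, as was so for 4.85% of all genes tested. Mir6910 and LOC102632476 were at 0 RPKM in all livers. Leaving Elane aside, 10 of the remaining 13 were tested and 1 had an adjusted p under 0.05. Among all genes 17.7% were called higher and 13.3% lower, so nothing is read from counts over so few genes. The called gene was Ptbp1, a splicing regulator 15.2 kb away, with a log2 fold change of 0.42 ± 0.14 (SE, adjusted p = 0.0339, edgeR). Plppr3, on the other strand with its start 5032 bases before Prtn3, had a log2 fold change of -0.15 ± 0.22 (adjusted p = 0.630, edgeR). Of the 50-base stretches of Prtn3 transcripts in GENCODE, 6.45% also occur in Plppr3 transcripts, read in either direction. Cfd, the complement factor D gene 7678 bases after Prtn3, ranged from 0.0196 to 20.4 RPKM in control liver and from 0 to 3.11 RPKM in pre-metastatic liver (log2 fold change -3.42 ± 1.28, adjusted p = 0.0535, edgeR).

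**Figure D4:**
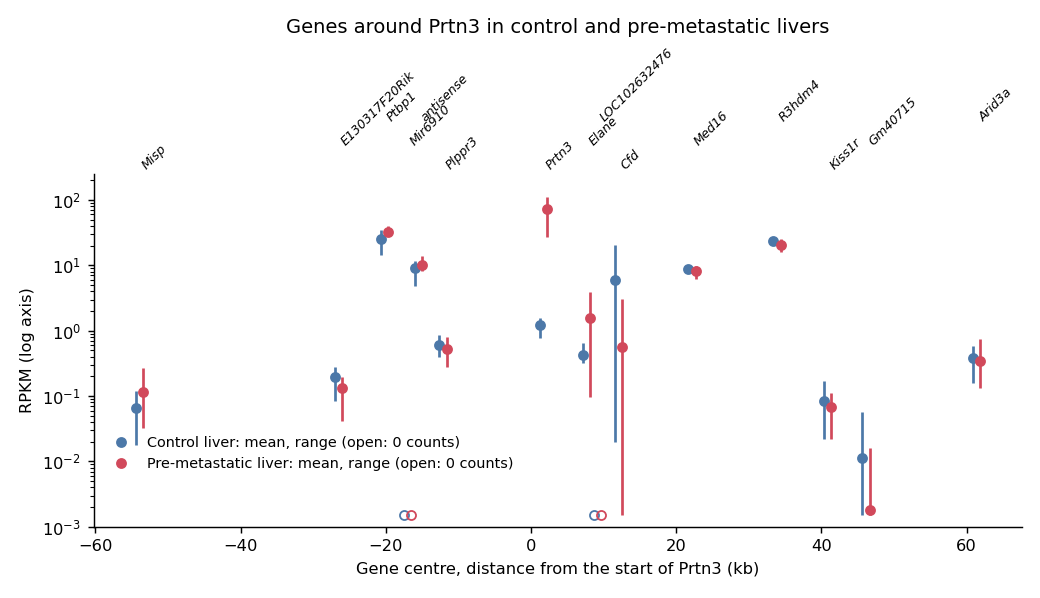
Mean RPKM (points, log axis) and range (bars) of each gene within 50 kb of Prtn3 in control and pre-metastatic livers, placed by the distance of the gene's centre from the start of Prtn3 in kb, with open circles for 0 counts. The 2 groups are apart at Prtn3 (1.22 against 72.0 RPKM) and overlap in range at the other genes.

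Other genes of granulocyte precursors were low in the livers. Of 10 such genes, 5 passed the count filter, of which 2 rose, 0 fell and 3 did not pass the test, with a median log2 fold change of 1.23 beside 0.01 for all genes. Beside 17.7% of all genes called higher and 13.3% lower, nothing is read from 2 of 5 genes. The genes that rose were Kit, a stem cell factor receptor, by 1.46 ± 0.36 (adjusted p = 0.00701, edgeR) and Cd34, a progenitor and endothelial surface protein, by 1.23 ± 0.36 (adjusted p = 0.0180, edgeR, and 0.0516 without control mouse C5). Ms4a3, a marker of granulocyte and monocyte precursors, was at 0 to 0.0826 RPKM in control liver and at 0 to 0.834 RPKM in pre-metastatic liver. Fcnb, a ficolin of early granulocytes, was at 0 to 0.0770 and 0 to 0.221 RPKM, and Bpi was at 0 counts in all 14 livers. The precursor transcription factor Cebpe was at 0 to 0.108 RPKM in control liver and 0 to 0.620 RPKM in pre-metastatic liver. Prss57, another granule serine protease, had a log2 fold change of 0.31 ± 0.54 (adjusted p = 0.701, edgeR).

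Most of the later granule and neutrophil genes rose, where 17.7% of all genes were called higher and 13.3% lower. Of 12 other secondary and tertiary granule genes, 11 were tested, 10 rose and 1 did not pass the test (median log2 fold change 2.55). Olfm4, olfactomedin 4 of a subset of neutrophils, rose by 7.04 ± 1.43 (adjusted p = 0.00189, edgeR) from 0.00379 RPKM on average in control liver to 0.552 RPKM, so its fold rests on very low counts. Olfm4 passed the filter through the pre-metastatic livers, at 6 to 387 counts against 0 to 2 in control liver. The filter thus favored a rise. Slpi, an inhibitor of neutrophil serine proteases, rose by 3.21 ± 0.65 (adjusted p = 0.00196, edgeR), Mmp9 by 2.78 ± 0.63 (adjusted p = 0.00389, edgeR) and Itgam, the CD11b integrin chain, by 2.75 ± 0.50 (adjusted p = 0.000876, edgeR). Lcn2 and Hp in this list are also made by hepatocytes and were at 839 and 8769 RPKM on average in pre-metastatic liver. Of 12 mature neutrophil genes, 11 were tested, 9 rose and 2 did not pass the test (median 2.11), among them Trem1 by 3.52 ± 0.82, S100a8 by 2.32 ± 0.62, Clec4d by 2.28 ± 0.63 and Il1r2 by 2.14 ± 0.77 (adjusted p = 0.00463, 0.0106, 0.0126 and 0.0448, edgeR). Il1r2 lost the call without any 1 of 8 livers (adjusted p up to 0.0998, edgeR). Trem1 had 0 to 3 counts in control liver and 0 to 25 in pre-metastatic liver, so its fold too rests on very low counts. It passed the filter through the pre-metastatic livers, where it is higher, and in 9 of the 14 fits that left out 1 liver. Il1r2 and Clec4d had at most 12 counts in any control liver, so the filter favored a rise for them too. Among the early livers, 8 of 10 genes of the first list and 5 of 8 of the second were called higher. Ly6g, the defining surface marker of mouse granulocytes, was at 0 to 0.146 RPKM in control liver and 0.0476 to 0.820 RPKM in pre-metastatic liver.

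Genes that handle the granule proteases were measured as well. Ctsc, the dipeptidyl peptidase that activates the granule serine proteases, rose by 1.92 ± 0.18 (adjusted p = 1.38e-05, edgeR) from 2.79 ± 0.305 RPKM (SD, n = 5) to 9.999 ± 2.69 RPKM (SD, n = 9). Srgn, the proteoglycan core that holds proteases in granules, rose by 0.78 ± 0.27 (adjusted p = 0.0352, edgeR), though not with scaling by total counts (adjusted p = 0.0757, edgeR) or without any 1 of 7 livers (adjusted p up to 0.0916, edgeR), and Cd63, a granule membrane protein, rose by 1.03 ± 0.30 (adjusted p = 0.0158, edgeR). The remaining gene of this list of 4, Ap3b1, had a log2 fold change of 0.20 ± 0.10 (adjusted p = 0.129, edgeR). Of 8 inhibitors of neutrophil proteases, 2 rose and 6 did not pass the test, where 17.7% of all genes were called higher: Slpi, as above, and Serpina1c, an alpha-1-antitrypsin gene of hepatocytes, by 0.63 ± 0.14 (adjusted p = 0.00373, edgeR). Of 8 myeloid transcription factors, 6 were tested and 3 rose, namely Runx1 by 1.40 ± 0.39, Spi1, the gene of PU.1, by 1.29 ± 0.25 and Irf8 by 1.05 ± 0.25 (adjusted p = 0.0127, 0.00137 and 0.00546, edgeR). In the early livers 1 of 5 was called higher and 1 lower, and Runx1 and Irf8 did not pass the test there (adjusted p = 0.0760 and 0.0564, edgeR).

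Markers of monocytes, Kupffer cells and dividing cells were mostly higher in pre-metastatic liver, where 17.7% of all genes were called higher and 13.3% lower. All 7 monocyte markers rose, with summed levels of 189 to 261 RPKM in control liver and 380 to 570 RPKM in pre-metastatic liver; F13a1 rose by 3.11 ± 0.53, Ccr2 by 2.53 ± 0.32, Ly6c2 by 1.98 ± 0.34 and Cd14 by 1.95 ± 0.36 (adjusted p = 0.000595, 7.54e-05, 0.000579 and 0.00113, edgeR). Of 7 Kupffer cell markers 6 rose, with sums of 102 to 188 and 173 to 509 RPKM, among them Timd4 by 1.77 ± 0.27, Cd5l by 1.64 ± 0.23, Adgre1 by 1.19 ± 0.32 and Clec4f by 1.08 ± 0.22 (adjusted p = 0.000271, 0.000134, 0.0120 and 0.00189, edgeR). Red cell precursor markers had sums of 12.2 to 19.5 and 14.5 to 88.0 RPKM, and 1 of 4 tested passed the test: Alas2, the first enzyme of heme synthesis in red cells, rose by 2.08 ± 0.33 (adjusted p = 0.000349, edgeR). Nothing is read from a count over 4 genes that is near the share of all genes. All 6 cell cycle markers rose, with sums of 0.382 to 1.07 and 1.65 to 10.5 RPKM, among them Ccnb1 by 4.32 ± 0.76, Top2a by 3.56 ± 0.48, Aurkb by 3.22 ± 0.58 and Mki67 by 3.22 ± 0.42 (adjusted p = 0.000749, 0.000119, 0.000886 and 0.000103, edgeR). The B cell receptor genes Cd79b and Cd79a rose by 1.87 ± 0.42 and by 1.79 ± 0.62 (adjusted p = 0.00373 and 0.0381, edgeR), and Cd79a lost the call without any 1 of 7 livers (adjusted p up to 0.0814, edgeR). Of 6 hepatocyte markers 3 did not pass the test and Serpina1c rose, while Cps1 fell by 1.61 ± 0.25 and Tat fell by 1.74 ± 0.26 (adjusted p = 0.000348 and 0.000241, edgeR). Eosinophil, basophil and mast cell markers summed to at most 1.21 RPKM and pancreatic acinar markers to at most 0.0974 RPKM in any liver. The part of these cell types in the level of Prtn3 was not tested.

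In the primary tumors, Prtn3 was low in every library. Its lowest tumor was at 0.188 RPKM, the median at 0.999 RPKM and the highest at 4.08 RPKM (mean 1.72 ± 1.62, SD, n = 9), from 10 to 277 counts. All 9 tumors lay below all 9 pre-metastatic livers, and each tumor was below the liver of its own mouse. The log2 fold change of tumor against pre-metastatic liver was -6.57 ± 0.60 (SE), and every tumor lay below every pre-metastatic liver for 14.2% of the 19751 genes tested. Against control liver the log2 fold change was -0.59 ± 0.63 (SE, adjusted p = 0.392, edgeR), and with scaling by total counts the estimate was 0.49. Scaling by total counts, which is the scale of RPKM, raised the median log2 fold change of all genes by 1.18 in the first of these comparisons and by 1.08 in the second, and 76.0% and 75.7% of their calls were then higher in tumor, against 52.5% and 53.7% with TMM. The pre-metastatic livers that chose the genes are 1 side of the first comparison, so a lower tumor value was favored by the choice. The control livers were also known at that choice, so the p values of the 8 genes against control liver are not independent of it. Both comparisons use the same tumors.

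Of the 8 granule genes, 6 were among the genes called lower in tumor against pre-metastatic liver, where 39.5% of all genes were called lower and 43.8% higher, and the median of the 8 was -5.17 beside 0.13 for all genes. This count too is a description. Elane had a log2 fold change of -5.54 ± 0.81, Ngp of -5.75 ± 0.84 and Camp of -5.77 ± 0.94 (SE). Mpo was at -4.80 ± 0.93 and Ltf at -4.37 ± 0.73. Elane was at 0 counts in 4 tumors and at 1 or 2 counts in 3 more, and Camp was at or under 3 counts in 8 of 9, as Mpo was in 6 of 9. These genes passed the count filter through the livers, where they are higher, so the filter as well as the choice of genes favored a lower tumor value. Against control liver 7 of the 8 genes passed the filter, and Camp was not tested. Elane (-3.55 ± 0.81) and Ngp (-3.37 ± 0.92) fell (adjusted p = 0.000781 and 0.00322, edgeR), where 38.1% of all genes were called lower. Elane passed the filter through the control livers, at 17 to 36 counts against 0 to 18 in the tumors. There too the filter favored a lower tumor value. Without control mouse C5 the adjusted p of Ngp was 0.0887 (edgeR). Mpo was at -1.97 ± 1.12 (adjusted p = 0.115, edgeR; 0.0115 without the tumor of M12) and Ltf at -1.62 ± 0.74 (adjusted p = 0.0534, edgeR; 0.0184, 0.0330 and 0.0407 without control mouse C1, C4 or C6).

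Ctsg and Chil3 stood apart from the other granule genes in the tumors. Ctsg was at 2.25, 0.915, 0.430, 5.07, 1.28, 2.09, 2.24, 1.23 and 29.9 RPKM in the tumors of mice M1, M2, M4, M5, M6, M7, M8, M10 and M12. The tumor of M12 was far above the rest, and all 9 tumors lay above all control livers. Against control liver Ctsg rose by 4.37 ± 1.19 (adjusted p = 0.00314, edgeR), where 44.2% of all genes were called higher and every tumor lay above every control liver for 56.4% of 19322 genes on the RPKM scale. Ctsg passed the filter through the tumors, at 24 to 1626 counts against 0 to 15 in control liver. The filter thus favored a higher tumor value. Ctsg was higher in the tumor than in the liver of the same mouse in 8 of 9 mice, and M1 was the exception. The fitted log2 fold change of tumor against pre-metastatic liver was 1.47 ± 0.80 (SE). It was 0.16 without mouse M12, 2.12 without mouse M1 and 2.67 with scaling by total counts.

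Chil3 was at 0.314 RPKM in the lowest tumor, 1.15 at the median and 2.63 in the highest, and its RPKM was higher in the tumor than in the own liver in 9 of 9 mice. Against control liver it rose by 2.11 ± 0.63 (adjusted p = 0.00612, edgeR). Chil3 too passed the filter through the tumors, at 27 to 208 counts against 1 to 30 in control liver. Here again the filter favored a higher tumor value. Against pre-metastatic liver the log2 fold change was 0.61 ± 0.52 (SE) with TMM and 1.82 with scaling by total counts. Of the 50-base stretches of Chil3 transcripts, 26.9% also occur in transcripts of other genes, Chil4 among them, and Chil4 was at 0 counts in all 23 libraries, so reads from the shared stretches cannot be assigned to one gene with certainty.

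Markers of other cells were compared with Ctsg and Prtn3 across the tumors. The mast cell genes Mcpt4, Tpsb2 and Cpa3 summed to 67.6 RPKM in the tumor of M12, to 83.7 RPKM in M5 and to 130 RPKM in M2, where Ctsg was at 0.915 RPKM. The lowest sum, 6.35 RPKM, was in the tumor of M7, where Ctsg was at 2.09 RPKM. For Prtn3, the tumors of M12, M10 and M2 were highest, at 4.08, 4.02 and 3.36 RPKM, and all 3 mice have livers of the late clock set. In M1, the remaining mouse of that set, the tumor was at 0.999 RPKM, below the early tumor of M6 at 1.23 RPKM. The tumors of M12 and M10 also held the most Alb, at 173 and 86.4 RPKM, against 2.97 to 15.01 RPKM in the other 7. Alb in these tumors was 0.419% and 0.254% of its level in the liver of the same mouse, while Prtn3 was at 4.53% and 11.1%. Elane (18 and 14 counts) and Mpo (89 and 42 counts) were also highest in the tumors of M12 and M10. Among the early mice alone, Prtn3 in tumor against control liver had a log2 fold change of -2.10 (adjusted p = 0.00332, edgeR). That set leaves out the tumors of M12, M10 and M2, the highest in Prtn3, so a lower tumor value was favored. Pancreatic acinar markers summed to 0.0372 RPKM in the lowest tumor and to 87.9 RPKM in the highest. The part of liver tissue or other cells in the tumor values was not tested.

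**Figure D5:**
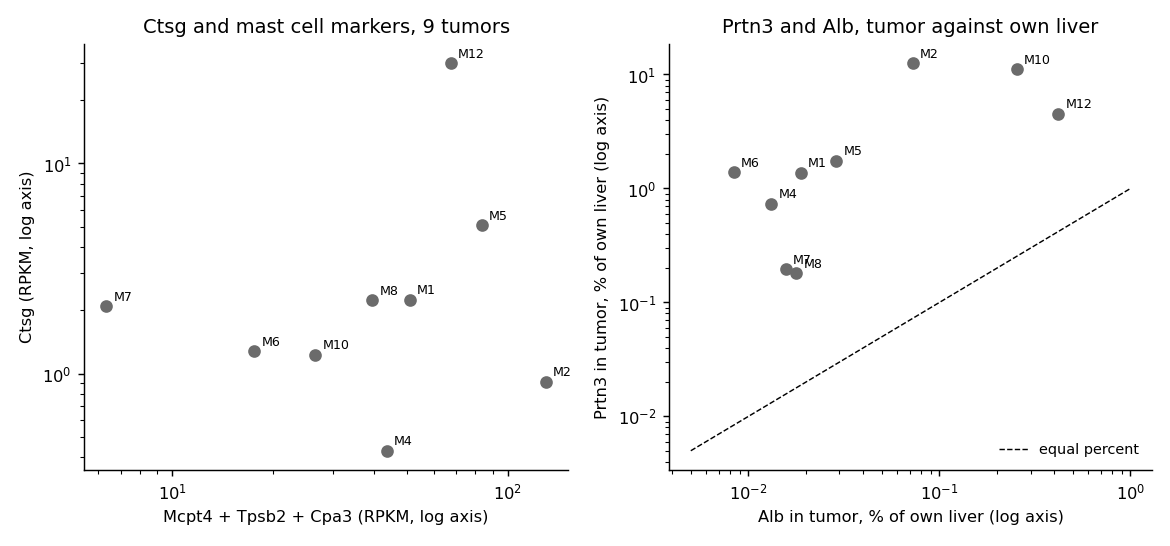
Left, Ctsg RPKM against the summed RPKM of the mast cell genes Mcpt4, Tpsb2 and Cpa3 in 9 tumors; right, Prtn3 in each tumor as a percent of the liver of the same mouse against Alb as a percent of that liver, with a dashed line of equal percent, all axes logarithmic. The tumor of M12 has 29.9 RPKM of Ctsg at 67.6 RPKM of mast cell genes, and all 9 tumors lie above the line of equal percent.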

How the data were processed

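Poly(A) RNA of 5 control livers, 9 pre-metastatic livers and 9 primary tumors was sequenced by a service company with the NEBNext Ultra kit. The authors deposited raw counts and RPKM of 48897 genes. The submitters' processing notes name HISAT2, HTSeq 0.6.0 and mm10. The annotation and the strand setting are not given in the sources used here. Recomputed RPKM differed from the deposited RPKM by at most 1.75e-06 of a value, and total counts were 44587556 to 79773163. Libraries were grouped by their titles, and each mouse gave 1 library per tissue.

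Counts were tested with edgeR 4.0.16 in R 4.3.3 (TMM, quasi-likelihood, two-sided, Benjamini-Hochberg over the genes that reached 10 counts in 5 or more libraries of the comparison). The table was read with pandas 2.3.3. The SE is the log2 fold change divided by the square root of F. DESeq2 1.42.0, relative log expression (RLE) factors, total-count scaling (added after seeing the data), no filter, early clock libraries alone and leaving out each replicate were alternatives. Precision of low values is limited by counting, and intervals were not drawn. On simulated livers of 16768 genes edgeR recovered 86 of 95 genes changed by 2 and 63 of 99 changed by 1 on the log2 scale, with 6 false calls.

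A tumor and a liver with the same number are from the same mouse per the labels. After the group means were taken off, such pairs had a mean correlation of 0.0764 over 12454 genes, and pairs of different mice of -0.00970. Same-mouse pairs ranged from -0.0740 to 0.241, with 4 of 9 over 0.1, so these values do not settle the pairing of each mouse.

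The 8 genes, the marker lists and the clock genes were chosen with earlier results of these data known. The genes named are the 8, those within 50 kb of Prtn3, the 5 most like Prtn3 over the 14 livers, and up to 4 called genes of each list by size. Others named from the lists (Prss57, Ms4a3, Fcnb, Bpi, Cebpe, Ly6g, Lcn2, Hp, Ap3b1) were picked after their values were seen. A result of the B cell list is not reported here. Motifs were searched as exact letters on both strands.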

Additional observations from a re-analysis of the deposited data

Results flagged for a closer look

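In 12 of the 24 combinations of a gene and a group, 1 library lay far from the others, by Dixon's gap relative to the group's range. For normally distributed values chance gives about 1 such library in 20 combinations. The values here are untransformed RPKM, and all 12 libraries were the highest of their group. The genes also share their libraries, so that rate need not hold. The pre-metastatic liver of M1 was the highest of 9 for Mpo (4.67 RPKM), Ctsg (2.91), Ngp (13.8), Camp (6.68), Ltf (3.61) and Chil3 (1.07), but not for Prtn3 or by this measure for Elane. Control mouse C5 was the highest of 5 for Elane (0.652 RPKM), Mpo (0.766) and Ngp (2.68). The tumor of M12 was the highest of 9 for Mpo (0.642 RPKM) and Ctsg (29.9 RPKM, with the next tumor at 5.07). The tumor of M7 was the highest of 9 for Camp (0.489 RPKM, from 16 counts), with the next tumor at 0.0614 RPKM.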

How the results depend on the processing

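Between the livers, the log2 fold change of Prtn3 was 5.86 to 6.30 over 19 alternatives, and all 8 granule genes stayed above 0. The range was 1.40 to 4.08 for Ngp, 1.96 to 4.28 for Mpo, 1.82 to 3.57 for Ltf, 2.34 to 3.39 for Ctsg, 1.71 to 2.20 for Elane, 0.779 to 2.63 for Camp and 0.664 to 2.12 for Chil3. Leaving out each replicate kept every genome-wide count within 1.5 times its value. With total-count scaling, tumor against pre-metastatic liver had 13353 genes higher and 4207 lower (8649 and 7810 with TMM), and tumor against control liver 12860 and 4131 (8542 and 7356). Prtn3 in tumor against control liver turned to 0.49 (adjusted p = 0.479, edgeR) with that scaling. It was -2.10 (adjusted p = 0.00332, edgeR) in the early mice, where 3 of the 8 genes passed the filter. The early mice leave out the tumors of M12, M10 and M2, the highest in Prtn3. Ctsg in tumor against pre-metastatic liver turned to -0.0033 in DESeq2, which replaced the count of 1626 in the tumor of M12 as an outlier. With the mouse as a replicate block, Prtn3 in tumor against pre-metastatic liver was -6.94, 8672 genes were higher and 7659 lower, and no call of the 8 genes changed. The median difference of Prtn3 from the other 7 genes became 0.862, 5.15 and 0.518 in control liver, pre-metastatic liver and tumor with 1 RPKM added, and 3.42 in tumor with 0.01 RPKM added. Low counts of the other 7 genes limit these ratios. The livers without which a call was lost were C1, C4, C5, C6, M1, M7 and M8 for Cd79a, C1, C4, C5, C6, M1, M6, M7 and M12 for Il1r2, C1, C5, C7, M1, M4, M5 and M8 for Srgn and C5 for Cd34. Between the livers, Ltf lost its call without C1, C4, C6, C7, M1, M10 or M12. Mpo lost it without C4, C6 or C7, and Ctsg without C1, C4 or C6. Ngp gained a call without C5.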

Other observations

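Prss57, the gene of a granule serine protease, was at 2.87 to 5.40 RPKM in the 9 tumors, at 0.00476 to 0.0758 RPKM in the 5 control livers and at 0.0128 to 0.124 RPKM in the 9 pre-metastatic livers. The tumors with the lowest Prtn3, M7 and M8, had 2.87 and 3.46 RPKM of Prss57. The summed level of the other early granulocyte genes in the tumors, 176 to 335 RPKM, was mostly Cd34, at 169 to 326 RPKM. These values were picked after they were seen and were not tested further.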
